A study of Mus musculus with 6 samples.

Results

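The 10 genes described here encode inflammatory chemokines that draw neutrophils and monocytes into tissue: Cxcl1, Cxcl2, Cxcl5, Ppbp and Pf4 of the CXC family and Ccl2, Ccl3, Ccl4, Ccl7 and Ccl12 of the CC family. They were chosen by name, as every probe of the array whose platform gene symbol was one of the 10. All 10 had a probe, among 16593 named genes on the array, and 13 of its 25697 probes belonged to them. Of these, 12 probes of 9 genes were detected on at least 3 of the 6 arrays and entered the test, among 13409 probes tested in all. Cxcl5 was the gene left out. The samples were CD45-enriched cells of 3 HBUS mice, taken from a serrated polyp of the cecum (SP, 3 samples) and from the normal surrounding, distal cecum (Surrounding, 3 samples), so that each polyp sample had a surrounding sample of the same animal. Both groups therefore shared 1 genotype. From general knowledge of the strain, and not from the labels, HBUS mice carry transgenes for the EGF receptor ligand HB-EGF and for US28, a chemokine receptor of human cytomegalovirus, expressed in the gut epithelium, so that controls without the transgenes are not among these samples. The labels used here give no age or sex and no purity of the enrichment.

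Chemokines are small secreted proteins that bind to matrix and to receptors on leukocytes and direct their migration. CXCL1, CXCL2, CXCL5 and PPBP attract neutrophils through the receptor CXCR2, CCL2, CCL7 and CCL12 attract monocytes mainly through CCR2, and CCL3 acts in part through CCR1. Most of the genes are switched on within a short time by IL-1, TNF or microbial products through NF-kappaB, while PPBP and PF4 are best known from platelet granules.

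The array signals bear on the values below in several ways. All 6 arrays lay on 1 chip, the 2 samples of a mouse side by side, and their number, 3 against 3, limits how precise the values are. The median intensity was 97.3 in the polyp sample of mouse 3 and between 102.3 and 109.3 on the other arrays, and the polyp sample of mouse 3 also had the fewest detected probes, 49.3% against 50.8% to 53.7% on the others. Ptprc encodes the CD45 used for enrichment. Its brighter probe had a normalised log2 intensity of 4.91, 5.43 and 4.48 in polyp cells of mice 1, 2 and 3. In surrounding cells it had 5.95, 6.22 and 5.61. That probe was lower in polyp cells (limma adjusted p = 0.00520) and undetected in those of mouse 3. The other probe was undetected in all 3 polyp samples, with a detection p of 0.19, 0.05 and 0.12. It did not pass (limma adjusted p = 0.0986). Epithelial markers were bright on every array, with a summed normalised intensity of 49867 to 52824 in polyp and 44209 to 47069 in surrounding samples, so epithelial RNA was also present after the enrichment. In such bulk samples, fewer cells of a type and less RNA per cell cannot be told apart. Because tissue from the same animals was compared, p-values rest on the spread between 3 pairs, which limma drew toward that of other probes. The prior from all tested probes counted for 4.04 degrees of freedom, beside 2 from the pairs.

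Setting polyp against surrounding cells asks whether transcripts of these chemokines differed at the site of the polyp within an animal. Ccl12, a ligand of CCR2 found in mice, fell in polyp cells, and it was the 1 gene of the 9 tested that passed the test. Over all probes 10.4% passed, 5.81% lower and 4.62% higher. Of the other 8, Ccl2 and Ccl7 were below the surrounding sample and Ppbp above it in all 3 mice without passing, and the 5 others differed in sign between mice. In mouse 1, Cxcl1 and Cxcl2 were more than 1 log2 unit higher in the polyp sample and Ccl2, Ccl3, Ccl4 and Ccl7 lay within 0.32 of the surrounding sample, while in mice 2 and 3 those CC chemokines differed by -3.59 to -1.53. The plot of levels shows each sample and the plot of differences each mouse. An exact sign-flip permutation over 3 pairs cannot give a two-sided p below 0.25. The tests are therefore those of limma, which shares variances across probes, with p adjusted by the Benjamini-Hochberg method over all 13409 probes. Each SE given here is also that of limma after this sharing, and not the SE of the 3 differences alone. It understates the spread between mice where that is wide. The SD of the 3 differences was 1.57 for Cxcl1 and 1.74 for Ccl7, beside a median of 0.17 over all tested probes. At an unadjusted limma p under 0.05, 5 of the 9 genes were lower, namely Ccl2, Ccl3, Ccl4, Ccl7 and Ccl12, and 1 was higher, Ppbp, where 27.8% of all probes passed that mark in either direction and 13.5% as lower.

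**Figure D1:**
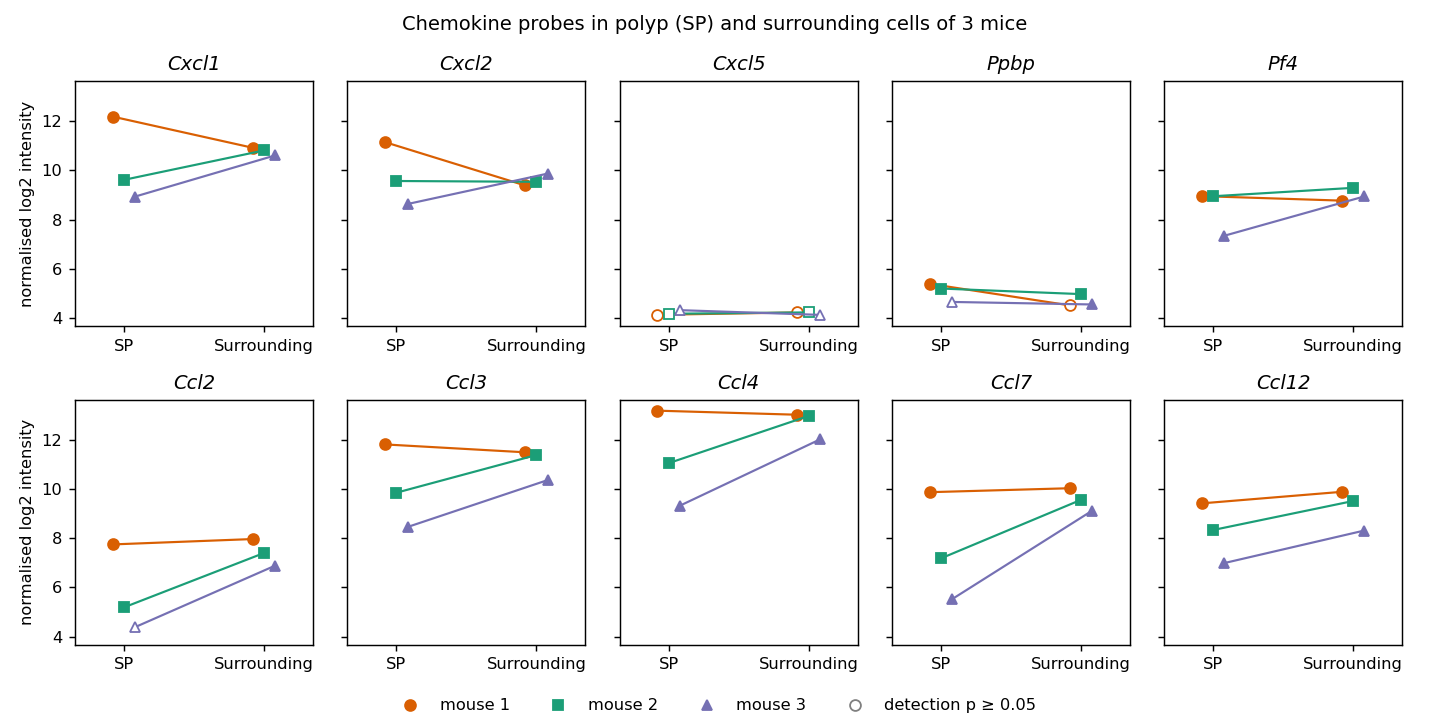
Normalised log2 intensity of the brightest probe of each of the 10 genes (y axis) in polyp (SP, left) and surrounding (right) samples, with a line for each of the 3 mice, set slightly apart, and open symbols where the detection p was 0.05 or more. The surrounding samples lie close together for Cxcl1 (10.61 to 10.91), whereas the polyp samples spread from 8.94 in mouse 3 to 12.18 in mouse 1, and Cxcl5 is open on all 6 arrays.

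**Figure D2:**
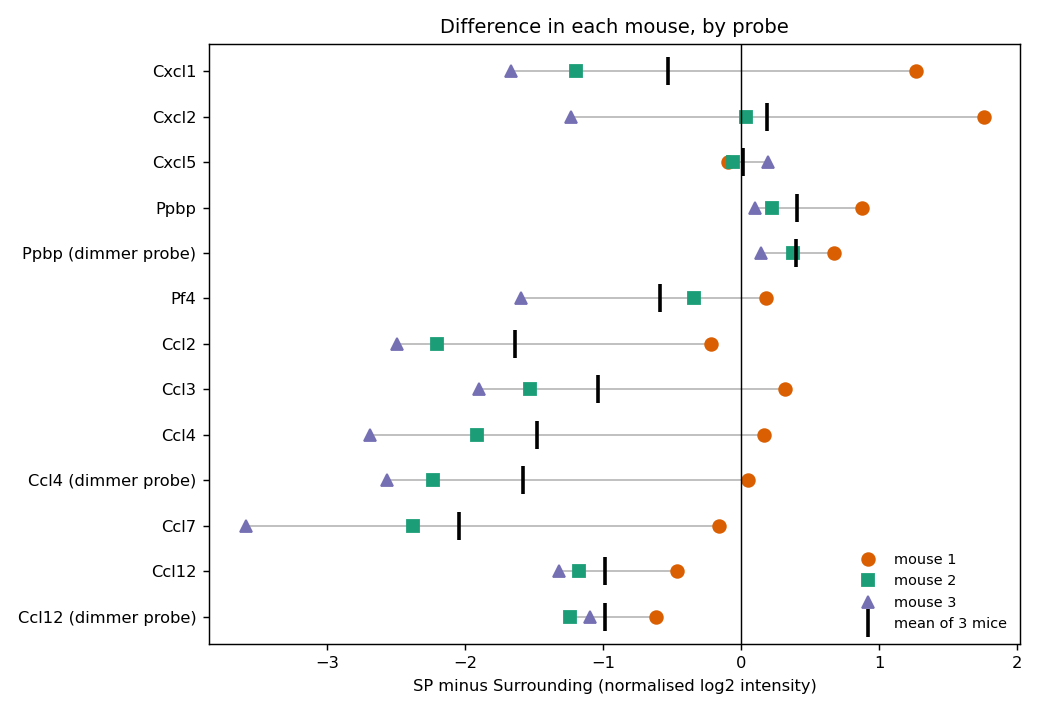
Difference of polyp minus surrounding in normalised log2 intensity (x axis) for each of the 13 probes (rows), with 1 symbol per mouse, a grey line from the lowest to the highest mouse and a black bar at the mean. Mouse 1 lies to the right of mice 2 and 3 in every row but that of Cxcl5, and Ccl7 spans the widest range, from -3.59 to -0.16.

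The promoters of Cxcl1 and Cxcl2 are shown because their windows hold matches to the kappaB motif, letters of the kind that NF-kappaB binds. These neighbouring genes also had the 2 largest polyp excesses in mouse 1. A link between the matches and these values was not tested. Those of Ccl3 and Ccl12 are shown because Ccl12 passed the test and Ccl3 differed in sign between mice. Each window runs from 250 bases before the start site through its first 50 transcribed bases, 5′ to 3′ on the strand of the gene, from RefSeq (GRCm38.p6), where 6 of the 10 genes had an entry. Capitals mark matches to the kappaB motif, searched as GGG, any 3 bases, then TTCC, and read on both strands. The Cxcl1 window is chr5:90890995-90891294 on the plus strand, that of Cxcl2 is chr5:90903649-90903948 on the plus strand, that of Ccl3 is chr11:83649329-83649628 on the minus strand and that of Ccl12 is chr11:82101595-82101894 on the plus strand.
Cxcl1: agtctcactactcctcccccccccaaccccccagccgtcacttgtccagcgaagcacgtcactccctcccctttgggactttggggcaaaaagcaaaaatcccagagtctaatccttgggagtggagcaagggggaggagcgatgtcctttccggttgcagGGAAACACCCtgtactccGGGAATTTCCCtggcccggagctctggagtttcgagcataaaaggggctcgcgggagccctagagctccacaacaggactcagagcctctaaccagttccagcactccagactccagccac
Cxcl2: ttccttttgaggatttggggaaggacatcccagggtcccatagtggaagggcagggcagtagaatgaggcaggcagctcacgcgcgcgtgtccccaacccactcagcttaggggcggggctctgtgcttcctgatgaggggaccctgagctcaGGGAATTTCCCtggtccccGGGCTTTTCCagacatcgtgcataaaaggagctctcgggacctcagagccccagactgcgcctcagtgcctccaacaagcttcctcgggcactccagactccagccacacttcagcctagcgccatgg
Ccl3: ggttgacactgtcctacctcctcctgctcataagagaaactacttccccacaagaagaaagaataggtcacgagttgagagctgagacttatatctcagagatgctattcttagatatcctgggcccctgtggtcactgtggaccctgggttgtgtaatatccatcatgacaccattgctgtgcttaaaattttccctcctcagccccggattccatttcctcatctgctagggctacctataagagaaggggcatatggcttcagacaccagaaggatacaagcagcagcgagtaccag
Ccl12: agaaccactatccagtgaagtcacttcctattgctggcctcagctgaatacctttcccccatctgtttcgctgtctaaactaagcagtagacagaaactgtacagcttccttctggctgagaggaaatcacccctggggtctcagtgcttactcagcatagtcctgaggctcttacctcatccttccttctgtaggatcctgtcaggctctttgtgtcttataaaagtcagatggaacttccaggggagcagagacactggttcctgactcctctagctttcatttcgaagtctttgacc
Cxcl1 and Cxcl2 each held 3 matches. In Cxcl1 they began at base -89 on the minus strand and at -71 and -70 on the plus and minus strands; the last pair overlap in 9 bases. In Cxcl2 they began at -97 and -96, again an overlapping pair on both strands, and at -78 on the plus strand. The same motif stood in 5.56% of the 32851 promoter windows of the table. Because the Cxcl1 and Cxcl2 windows were shown for their matches, this share is no test of them. It had no match in the windows of Ppbp, Pf4, Ccl3 and Ccl12. The AP-1 motif TGANTCA, also read on both strands and present in 7.81% of windows, matched at -204 of Ppbp and in none of the other 5. A match is a description of these letters and not a measured site. In the RefSeq order of protein-coding genes, the 5 CXC genes lay in 1 cluster on chromosome 5, as Cxcl5, Ppbp and Pf4 side by side and then Cxcl1 and Cxcl2 side by side, and on chromosome 11 Ccl2 and Ccl7 were neighbours with Ccl11 between Ccl7 and Ccl12, while Ccl3 and Ccl4 stood together farther along.

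Among the neutrophil attractants, Cxcl1 (probe ILMN_2763245), the mouse chemokine first known as KC, had a normalised log2 intensity of 12.18, 9.62 and 8.94 in polyp cells of mice 1, 2 and 3, against 10.91, 10.81 and 10.61 in surrounding cells. The polyp sample of mouse 1 was thus above all 3 surrounding samples and those of mice 2 and 3 below all of them. The differences were 1.26, -1.19 and -1.67 in mice 1, 2 and 3, and their mean of -0.53 ± 0.53 (SE, n = 3 pairs) missed the threshold (limma adjusted p = 0.563). The scanner intensities before any correction were 4431.0, 1013.0 and 463.7 in polyp cells, against 1967.6, 1893.8 and 1769.8 in surrounding cells, in the same order. Detection p was 0.00 on all 6 arrays. Without mouse 3 the mean difference turned to 0.035 (limma adjusted p = 0.979), and without mouse 1 it was -1.43 and passed (limma adjusted p = 0.000575).

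Cxcl2 (ILMN_2811154), known as MIP-2 and like Cxcl1 a ligand of CXCR2, had 11.14, 9.57 and 8.64 in polyp cells of mice 1, 2 and 3, against 9.39, 9.54 and 9.87 in surrounding cells. It was higher by 1.76 in mouse 1, level in mouse 2 (0.03) and lower in mouse 3 (-1.23), so the groups overlapped and each mouse behaved differently. The mean of 0.19 ± 0.51 (SE, n = 3 pairs) did not pass (limma adjusted p = 0.851). It was detected on all 6 arrays with a detection p of 0.00. Its sign also hung on 1 mouse, since without mouse 1 the mean was -0.60 (limma adjusted p = 0.151).

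Cxcl5 (ILMN_1230278), a CXCR2 ligand made mostly by epithelial and stromal cells, was not detected in any sample. Its detection p was 0.99, 0.84 and 0.29 in polyp cells of mice 1, 2 and 3, against 0.60, 0.55 and 0.99 in surrounding cells. Scanner intensities of 86.6, 94.8 and 92.0 in polyp and 94.3, 95 and 87.8 in surrounding samples lay below the median of each array. Cxcl5 therefore has no measured difference here, and the by-mouse values of -0.10, -0.06 and 0.19 lie at background.

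Ppbp and Pf4 encode proteins of platelet granules. Ppbp, the precursor of the neutrophil attractant NAP-2, was dim. Its brighter probe (ILMN_1228102) had 5.40, 5.21 and 4.66 in polyp cells of mice 1, 2 and 3, against 4.52, 4.98 and 4.56 in surrounding cells. Detection p was 0.00, 0.00 and 0.05 in polyp cells, against 0.08, 0.00 and 0.04 in surrounding cells. Differences of 0.88, 0.23 and 0.10 averaged 0.40 ± 0.16 (SE, n = 3 pairs) and did not pass (limma adjusted p = 0.178). The other probe (ILMN_2908435) gave 0.67, 0.38 and 0.14, with a mean of 0.40 ± 0.12 (limma adjusted p = 0.105), and was detected on 2 polyp arrays and 1 surrounding array. Ppbp was the 1 tested gene higher in the polyp sample of all 3 mice, a pattern that 27.3% of tested probes had, and in unnormalised intensities mouse 3 had the opposite sign for both probes.

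Pf4 (ILMN_2757966), platelet factor 4, binds heparin and is a weak attractant. It had 8.96, 8.95 and 7.35 in polyp cells of mice 1, 2 and 3, against 8.77, 9.29 and 8.94 in surrounding cells, so that 1 polyp sample, that of mouse 3, lay far below the other 5. The differences were 0.18, -0.34 and -1.60, with a mean of -0.58 ± 0.32 (SE, n = 3 pairs) that did not pass (limma adjusted p = 0.289). Of 7 tested platelet and megakaryocyte markers, 1 rose and 6 did not pass, with a median of -0.01. The gene that rose was Gp1bb, a subunit of the von Willebrand factor receptor (0.85 ± 0.15, SE, n = 3 pairs, limma adjusted p = 0.0228), and without mouse 2 it did not pass. Itga2b, the platelet integrin, was detected on 1 array, and Gp5 and Tubb1 on none. The summed level of the 7 was 927 to 1541 in polyp and 695 to 729 in surrounding samples. Most of each sum was Selp, by far the brightest of the list, so the sums do not describe the list as a whole. Selp had 10.34, 9.37 and 9.46 in polyp cells of mice 1, 2 and 3, against 8.87, 9.02 and 8.97 in surrounding cells. It did not pass (limma adjusted p = 0.0854). The part of platelets in the Ppbp and Pf4 signals was not tested.

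Among the monocyte attractants, Ccl2 (ILMN_1245710), also called MCP-1, had 7.75, 5.20 and 4.40 in polyp cells of mice 1, 2 and 3, against 7.97, 7.40 and 6.89 in surrounding cells. Each polyp sample was below its own pair, and the polyp sample of mouse 3, with a detection p of 0.19, was the only array without detection of the gene. The differences were -0.22, -2.21 and -2.49. The mean of -1.64 ± 0.42 (SE, n = 3 pairs) missed the threshold (limma adjusted p = 0.0643). With a trended, robust prior its limma adjusted p was 0.245. Ccl7 (ILMN_2835117), MCP-3, had 9.87, 7.18 and 5.53 in polyp cells, against 10.03, 9.55 and 9.11 in surrounding cells. The gap was -0.16 in mouse 1, -2.37 in mouse 2 and -3.59 in mouse 3, the last of them the widest of any of the 10 genes in any mouse. Its mean of -2.04 ± 0.58 (SE, n = 3 pairs) did not pass (limma adjusted p = 0.0851, or 0.324 with the trended, robust prior), although it was the largest mean difference of the 10. Both genes passed without mouse 1, at -2.35 (limma adjusted p = 5.68e-05) for Ccl2 and -2.98 (limma adjusted p = 0.000211) for Ccl7.

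Ccl12 (ILMN_2771766), also called MCP-5, fell. It had 9.41, 8.33 and 6.99 in polyp cells of mice 1, 2 and 3, against 9.88, 9.51 and 8.31 in surrounding cells. Levels overlapped between the groups, because mouse 3 was low in both tissues, but each polyp sample was below its own pair, with differences of -0.47, -1.18 and -1.32. The change was 1.98-fold (-0.99 ± 0.17 log2, SE, n = 3 pairs, limma adjusted p = 0.0228). The dimmer probe (ILMN_3161805) had 9.01, 7.58 and 6.71 in polyp and 9.63, 8.82 and 7.81 in surrounding samples, with differences of -0.62, -1.24 and -1.09, and it also passed (-0.99 ± 0.14, limma adjusted p = 0.0125). The call rested on the pairing: without a mouse term the same difference had a limma adjusted p of 0.546. It was also lost without mouse 2 (-0.89, limma adjusted p = 0.107) and without mouse 3 (-0.82, limma adjusted p = 0.107).

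Ccl2, Ccl7 and Ccl12 were lower in all 3 polyp samples than in their pairs, 3 of the 9 tested genes, where 22.8% of all tested probes were. For none of the 9 genes did all polyp samples lie below all surrounding samples, which held for 8.64% of probes.

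Ccl3 and Ccl4, or MIP-1 alpha and beta, are made by activated macrophages, neutrophils and lymphocytes and attract monocytes and T cells. Ccl3 (ILMN_1253919) had 11.80, 9.84 and 8.45 in polyp cells of mice 1, 2 and 3, against 11.48, 11.37 and 10.36 in surrounding cells. Mouse 1 was slightly higher in the polyp (0.32) and mice 2 and 3 were lower (-1.53 and -1.90), and the mean of -1.04 ± 0.40 (SE, n = 3 pairs) did not pass (limma adjusted p = 0.165). Ccl4 (ILMN_1223257) had the same signs in the 3 mice. It had 13.17, 11.04 and 9.32 in polyp cells, against 13.01, 12.96 and 12 in surrounding cells, or 8732.7, 2566.1 and 584.9 against 8402.7, 8273.9 and 4537.7 as scanner intensities. The differences of 0.17, -1.91 and -2.69 averaged -1.48 ± 0.50 (SE, n = 3 pairs, limma adjusted p = 0.123). The dimmer Ccl4 probe (ILMN_1224472) gave 0.05, -2.23 and -2.56 (mean -1.58 ± 0.48, limma adjusted p = 0.0984). In unnormalised intensities its difference in mouse 1 had the opposite sign, so mouse 1 had no settled direction for Ccl4.

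The mice differed more from each other in polyp than in surrounding samples. Over the 3 mice Cxcl1 had an SD of 1.71 in polyp and 0.16 in surrounding samples, about 11 times as large in the polyp. Cxcl2 had an SD of 1.27 in polyp and 0.25 in surrounding samples, and Ccl7 an SD of 2.19 in polyp and 0.46 in surrounding samples. All 9 tested genes had the larger SD in the polyp, as did 57.7% of all tested probes. The median SD of the 9 was 1.68 in polyp and 0.46 in surrounding samples, beside medians of 0.20 and 0.17 over all probes. The smallest contrast was that of Ccl12, with an SD of 1.21 in polyp and 0.82 in surrounding samples, a ratio of 1.48.

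**Figure D3:**
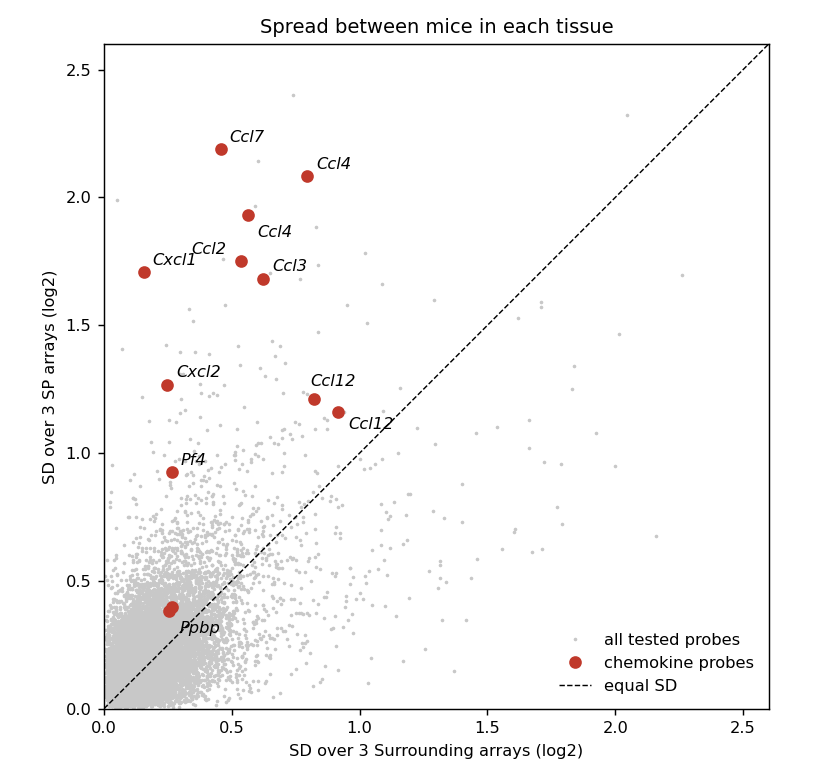
SD of the normalised log2 intensity over the 3 polyp arrays (y axis) against that over the 3 surrounding arrays (x axis), for all 13409 tested probes (grey) and the 12 tested chemokine probes (red), with a dashed line of equal SD. All 12 lie above the line, from Ppbp near 0.38 to Ccl7 at 2.19 on the y axis, and Cxcl1 combines an SD of 1.71 in polyp with 0.16 in surrounding samples.

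The order of the mice was the same in nearly every probe. All 12 probes had their highest difference in mouse 1, as did 34% of all tested probes. It was followed by mouse 2 and then mouse 3 for all 9 genes, an order that 20.6% of tested probes shared, and of the 12 probes the dimmer one of Ccl12 alone had mouse 2 below mouse 3. Mouse 1 stood above the mean of the other 2 mice by 2.82 for Ccl7, 2.70 for Cxcl1, 2.47 for Ccl4, 2.36 for Cxcl2, 2.13 for Ccl2 and 2.03 for Ccl3. Each of these gaps exceeded that of at least 99.8% of all tested probes, whose median gap was -0.02. For Pf4, Ccl12 and Ppbp it was 1.15, 0.78 and 0.71. The median difference of the 9 genes was 0.18, -1.19 and -1.67 in mice 1, 2 and 3, beside 0.01, 0.03 and 0.02 over all tested probes. With 1 pair per mouse, a difference between mice could not be tested. Without mouse 1, 7 of the 9 genes were lower in polyp cells, all but Cxcl2 and Ppbp, where 8.22% of probes were. Without mouse 2 and without mouse 3 none of the 9 passed in limma, where 3.07% and 3.98% of all probes passed; at an unadjusted p under 0.05 over all 3 mice, 5 were lower. Each of these fits rests on 2 pairs. With the mouse term dropped none passed (1.36% of probes), nor with an offset of 1 (4.67%) or no filter on dim probes (3.69%). These counts read each gene at its brightest probe. With no filter, the dimmer probe of Ccl12 did pass (limma adjusted p = 0.0394), where the brighter had 0.0706. An offset of 50 called Ccl2 and Ccl12 (6.29% of probes lower), array weights called these with Ccl3, Ccl4 and Ccl7 (8.74% lower), and median scaling called the same 7 as without mouse 1 (7.46% lower). The polyp sample of mouse 3 was lowest for 8 of the 9 genes over all 6 arrays. It is the one with the lowest median intensity and with the brighter Ptprc probe undetected. The dimmer Ptprc probe was undetected in all 3 polyp samples. The part of these in the differences was not tested.

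Of 9 listed receptors of these and related chemokines with a probe, 5 were tested, of which 1 rose, 1 fell and 3 did not pass. Cxcr2, the neutrophil receptor for Cxcl1, Cxcl2, Cxcl5 and the Ppbp product, had 5.30, 5.91 and 5.95 in polyp cells of mice 1, 2 and 3, against 4.21, 4.62 and 4.38 in surrounding cells. Every polyp sample was above every surrounding sample, and Cxcr2 rose (1.32 ± 0.12 log2, SE, n = 3 pairs, limma adjusted p = 0.00357). It was detected on 3 polyp arrays and 1 surrounding array, so it entered the test through the polyp samples and the size of the change is not settled. Cxcr3, a receptor of activated T cells, fell (-1.23 ± 0.11, limma adjusted p = 0.00332) and was detected on 2 polyp and 3 surrounding arrays. With detection required on all 6 arrays neither was tested, and 0 of the 2 receptors left passed in limma. Cxcr1 differed by 0.25, -0.08 and 0.99 in mice 1, 2 and 3 (limma adjusted p = 0.274). Of the atypical receptors that take up chemokines without signalling for migration, Ackr1, found on venules and red cells, differed by 1.03, 0.60 and 0.24 (limma adjusted p = 0.0631) and Ackr2 by 0.06, -0.15 and 0.21 (limma adjusted p = 0.851). Ccr1 and Ccr2, the receptors through which CCL3, CCL2, CCL7 and CCL12 act, were detected on 0 of the 6 arrays, and Ccr3 and Ackr4 on 1 each.

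Cytokines that induce these chemokines, and genes that NF-kappaB switches on to restrain itself, were listed with related genes such as Icam1, Il1r1 and Myd88. Their differences also varied between mice. Of 22 listed genes all had a probe and 19 were tested, of which 1 fell and 18 did not pass, with a median of -0.14. Above 0 in mouse 1 and below 0 in mice 2 and 3 were 13 of the 19, beside 9.16% of all tested probes. So were Cxcl1, Pf4, Ccl3 and Ccl4 of the 9 chemokines, though Ccl4 had no settled direction in mouse 1. Some values of the 13 also lay near 0, such as Nfkbie at 0.02 in mouse 1 and Csf1 at -0.06 in mouse 2. Il1a, which encodes interleukin 1 alpha, had 10.15, 7.83 and 6.24 in polyp cells of mice 1, 2 and 3, against 8.62, 8.48 and 7.53 in surrounding cells. The polyp sample of mouse 1 was thus the highest of the 6 and that of mouse 3 the lowest. Tnf had 9.66, 7.12 and 6.43 in polyp cells, against 8.51, 8.54 and 7.40 in surrounding cells, in a like arrangement. Il6 differed by 0.75, -0.74 and -1.11 in mice 1, 2 and 3, Il1b by 0.84, -0.21 and -0.34, and Osm, the cytokine oncostatin M, by 1.29, -0.05 and -0.32. Il17a, which stimulates neutrophil recruitment, differed by 1.02, -0.50 and -0.38. It was detected on 1 polyp array and 3 surrounding arrays, and Il6 on 2 polyp and 3 surrounding arrays. The size of the differences of Il17a and Il6 is therefore not settled. Of the feedback genes, Nfkbia, the inhibitor that holds NF-kappaB in the cytoplasm, differed by 0.55, -0.68 and -0.74, and Tnfaip3, the ubiquitin-editing inhibitor A20, by -0.08, -1.61 and -1.59 (limma adjusted p = 0.0785). Other genes of the list went another way. Il33 differed by 0.43, 0.40 and 0.17 in mice 1, 2 and 3 and Il1r1 by 0.25, 0.17 and 0.31. Zc3h12a differed by 0.75, -0.68 and 0.245. Csf3, detected on 1 polyp array and 2 surrounding arrays, differed by -0.45, 0.13 and 0.17. None of these passed in limma. The median of the list was 0.55, -0.65 and -0.38 in mice 1, 2 and 3.

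The listed inducer that passed was Csf2, which encodes the growth factor GM-CSF. It had 5.06, 4.36 and 4.23 in polyp cells of mice 1, 2 and 3, against 5.49, 6.14 and 5.75 in surrounding cells, and fell (-1.24 ± 0.25 log2, SE, n = 3 pairs, limma adjusted p = 0.0340). It was detected on 1 polyp array and 3 surrounding arrays, so it entered the test through the surrounding samples and the size of the change is not settled. The call was lost with an offset of 1, without background correction and in the processed values of the authors. In each of these, 0 of the 19 listed genes passed in limma. Without mouse 1, 11 of the 19 were lower; without mouse 2, without mouse 3 and without the mouse term, 0 passed in limma. Il22 was detected on no array, Il17f on 1 and Ptgs2 on 2.

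**Figure D4:**
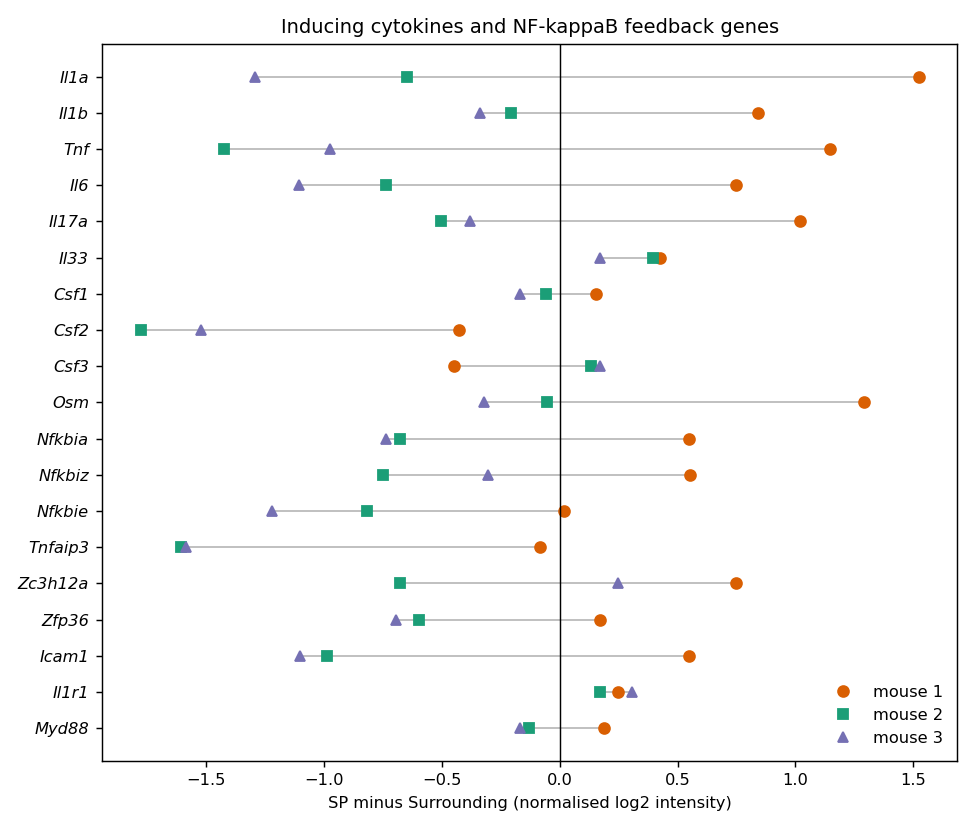
Difference of polyp minus surrounding in normalised log2 intensity (x axis), with 1 symbol per mouse. Rows are the 19 tested genes listed as inducers, NF-kappaB feedback genes and related genes. Mouse 1 lies to the right of both other mice for 17 of the 19 genes, and Il1a spans the range from -1.29 in mouse 3 to 1.52 in mouse 1.

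Other chemokines are set beside the 10 by counts. Of 20 tested, 2 rose, 7 fell and 11 did not pass, and 2 had the pattern of above 0 in mouse 1 and below 0 in the others. Ccl5, the T cell product RANTES, fell (-2.77 ± 0.18, SE, n = 3 pairs, limma adjusted p = 0.00215), with differences of -2.47, -3.31 and -2.52 in mice 1, 2 and 3. Xcl1, lymphotactin, fell by 2.05 on the log2 scale (limma adjusted p = 0.0126), and Ccl25, which draws lymphocytes to the small intestine, rose by 1.84 (limma adjusted p = 0.00520). Cxcl3, another CXCR2 ligand, was detected on no array.

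Markers of the cells that make or follow these chemokines are given as measured. Of 10 tested neutrophil markers, 6 rose and 4 did not pass, with a median of 1.65, 0.95 and 1.22 in mice 1, 2 and 3, led by S100a9 (2.91 ± 0.32, limma adjusted p = 0.00544), S100a8 (2.63) and Lcn2 (1.64). Of those that did not pass, Retnlg differed by 3.17, 0.36 and -1.12 in mice 1, 2 and 3 and Mmp9, the gelatinase of neutrophil granules, by 1.5, -0.54 and -1.36 (limma adjusted p = 0.523 and 0.892), and without mouse 1 a single marker of the list was lower. The summed level of the 10 was 7302 to 8724 in polyp and 1680 to 3785 in surrounding samples, and Cxcr2 is on this list too. Every polyp sum was above every surrounding sum. S100a8 and S100a9 were the brightest of the list in each polyp sample and made up most of each polyp sum. The sums therefore do not describe the list as a whole. The granule gene Mpo was detected on 0 arrays. Of 15 monocyte and macrophage markers, 1 rose, Arg1 (3.52 ± 0.28, limma adjusted p = 0.00291), and 14 did not pass. Arg1 was detected on 3 polyp and 2 surrounding arrays, so the size of its change is not settled. With detection required on all 6 arrays it was not tested, and 0 of the 14 markers left passed in limma. The list had medians of -0.12, -0.16 and -0.63 in mice 1, 2 and 3. Its summed level was 14742 to 24331 in polyp and 17322 to 24849 in surrounding samples. Of 8 mast cell markers, 1 rose, the transcription factor Gata2 (0.67, limma adjusted p = 0.0306), and the list was highest in mouse 1, with medians of 1.99, 0.20 and -0.39 and a summed level of 797 to 3059 in polyp and 799 to 1682 in surrounding samples. T cell markers fell in 11 of 12 cases, with medians of -1.78, -1.76 and -1.16 and sums of 983 to 2091 in polyp and 2334 to 7458 in surrounding samples. B cell markers fell in 9 of 9, with medians of -1.84, -2.07 and -2.67, and 9 of 10 endothelial markers rose, with medians of 0.80, 0.83 and 0.88. Of 11 epithelial markers 3 rose, with medians of 0.24, 0.15 and 0.17. Of 11 fibroblast and stromal markers 10 did not pass and 1 fell, Thy1, with differences of -1.11, -1.22 and -0.80 in mice 1, 2 and 3. That list had medians of 0.06, 0.19 and -0.54, so Thy1 does not stand for it. The neutrophil, monocyte and macrophage, T cell, B cell, epithelial and endothelial medians thus had 1 sign in all mice, and those of mast cells, fibroblasts and inducers did not. Dropping the mouse term left 0 T cell, 4 neutrophil, 7 B cell, 4 endothelial, 0 epithelial, 0 mast cell, 0 platelet and 0 fibroblast markers past the threshold in limma, besides 1 monocyte and macrophage marker, 1 receptor and 1 of the 20 other chemokines. Without mouse 1, 6 monocyte and macrophage markers were lower, and without mouse 2 and without mouse 3 none of the epithelial markers and no mast cell marker passed. The part of any of these cells in the chemokine values was not tested.

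**Figure D5:**
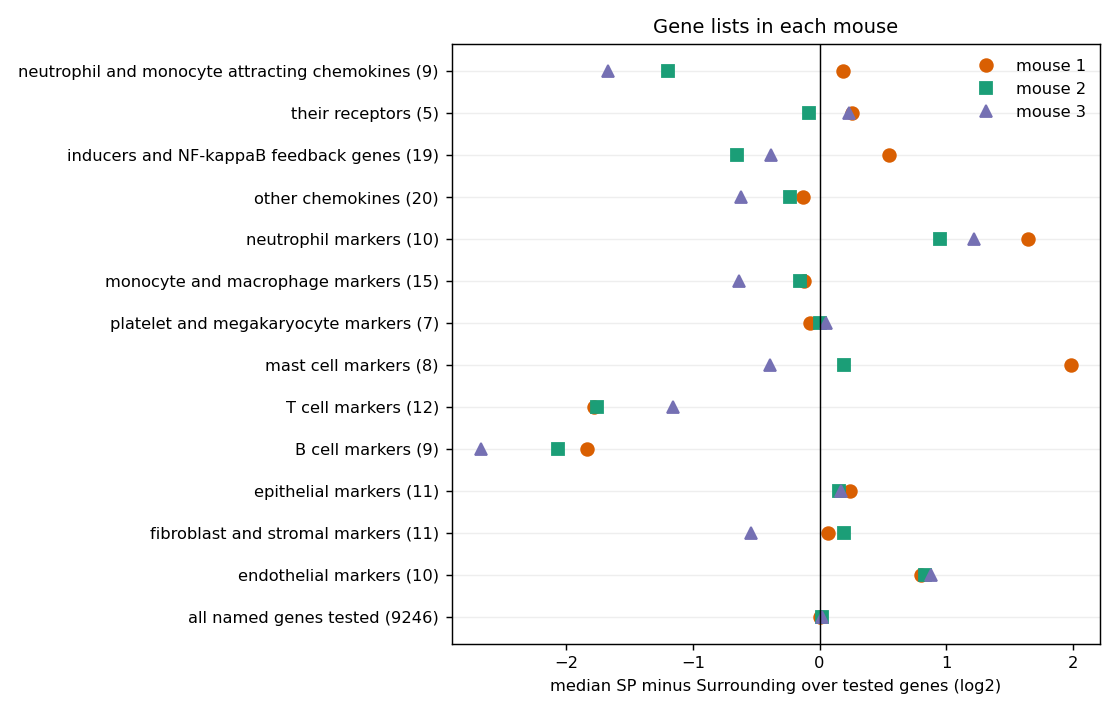
Median difference of polyp minus surrounding (x axis, log2) in each of the 3 mice over the tested genes of each list (rows, number tested in parentheses). The chemokines run from 0.18 in mouse 1 to -1.67 in mouse 3 and the inducers from 0.55 to -0.65, while the medians of neutrophil, monocyte and macrophage, T cell, B cell, epithelial and endothelial markers and of other chemokines keep 1 sign in all 3 mice.

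Across the 6 arrays, the genes whose normalised log2 intensity ran most like that of Ccl4 were Plau, the urokinase (Pearson r = 0.997), Cd83, a surface protein of activated dendritic and B cells (0.994), and Zfp36, which encodes the mRNA-decay factor tristetraprolin (0.993). For Ccl3 they were Zfp36 (0.996), the stress-response gene Gadd45b (0.995) and Epb41l4a (0.993). For Cxcl1 they were Zyx, which encodes the focal adhesion protein zyxin (0.993), Plpbp (0.989) and Adm, adrenomedullin (0.987). Adm had 7.98, 5.90 and 5.57 in polyp cells of mice 1, 2 and 3, against 7.15, 7.15 and 6.62 in surrounding cells. These r values are the highest of 9246 genes over 6 arrays from 3 mice that share a chip, and they describe the order of the samples only.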

How the data were processed

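CD45-enriched cecal cells of 3 mice were measured on 6 arrays of an Illumina mouse BeadChip. Per the file headers, the unnormalised table gives a linear intensity for each probe and array beside a detection p-value, in 2 decimals. The genome build was not given in the sources used here. The second table of the authors matched the quantile-normalised scanner intensities, with no background step, to within 0.005. GenomeStudio and limma 3.14.4 appear in the submitters' processing notes, with no role stated.

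In R 4.3.3 with limma 3.58.1, intensities were corrected by normexp (background parameters inferred through detection p-values, offset 16), quantile normalised and put on the log2 scale; offset and background step set the size of a dim probe's change. Probes with a detection p under 0.05 on at least 3 arrays were tested with lmFit and eBayes, with terms for mouse and for SP against Surrounding, Benjamini-Hochberg adjustment over 13409 probes and a threshold of 0.05. The prior added 4.04 degrees of freedom to 2, and each SE given includes this prior. The code was tested on simulated data. Symbols came from the platform annotation; 0 changed against RefSeq. A gene stands for its brightest tested probe.

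The design text pairs the samples of a mouse; their deviations from the group means correlated by 0.571, 0.564 and 0.614, which a shared place on the chip cannot be told apart from. The genes and lists were chosen with earlier results of these data known. Named from each list were the up to 3 largest changes past the threshold, from the receptor, inducer and platelet lists any gene, and the 3 genes most correlated with each of the 3 brightest chemokines. Other genes, given as counts of detection or as exceptions within a list, were named after their values were seen.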

Additional observations from a re-analysis of the deposited data

How the results depend on the processing

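Of the 1399 changed probes 44.3% were higher; with arrays scaled to the same median, 28.9% of 1407 were, and that fit had an infinite prior, so its calls rest on size alone. The count was 626 with an offset of 1, 2252 with empirical array weights and 183 with no replicate block, and 412 to 1927 with a mouse left out. The chemokines that changed, 1 of 9, numbered 2 with an offset of 50 (Ccl12 and Ccl2), 0 with an offset of 1, 0 with no filter on dim probes, 0 with no replicate block, 7 with median scaling, 5 with array weights (Ccl2, Ccl3, Ccl4, Ccl7 and Ccl12), and 0 to 7 with a mouse left out. In every setting that called any, Ccl12 was among them and all calls were lower. In the fit described above, counting a gene by any probe left the number at 1. With no filter on dim probes, the dimmer probe of Ccl12 passed (limma adjusted p = 0.0394) though the brighter did not. With a mouse left out, Cxcl1 ranged from -1.43 to 0.035 and Cxcl2 from -0.60 to 0.89, which turns both signs; the cause was not tested. Of 176 single-probe results under the alternatives, 145 kept sign and side of the threshold, 20 newly passed, 9 no longer passed and 2 changed sign. The brighter Ccl12 probe passed in 10 of 15 alternatives (limma adjusted p from 2.03e-07 to 0.546), with values from -1.25 to -0.79. The dimmer one passed in 11 of 15. List counts stayed within 1.5 times in 136 of 180 cases. The signs of all 36 by-mouse differences of the 12 tested probes were the same in the authors' processed values, and of 33 in the scanner intensities. The Ppbp and Cxcl5 probes lie at or near background, and Ccl2 does so in the polyp sample of mouse 3, which limits those differences.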
